A study of Mus musculus with 9 samples.

Results

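Wnt signalling genes were examined in a series on Yap1, the transcriptional coactivator of the Hippo pathway, in J1 mouse embryonic stem (ES) cells. The 50 genes described here are the Wnt ligands, Frizzled receptors, their co-receptors, the enzymes and carriers of ligand secretion, the secreted modulators and the feedback genes of the pathway. They were taken by name from the 18504 genes of the deposited table: every symbol beginning with Wnt, Fzd, Sfrp or Dkk followed by a digit, and 14 further genes given by symbol. The rule reads symbols alone, and the set was chosen with earlier results of these data known. The set holds 18 Wnt ligands, 2 genes of ligand secretion, 10 Frizzled receptors, 4 co-receptor or Lgr genes, 10 secreted modulators and 6 feedback and target genes.

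Polyadenylated RNA was sequenced from 9 libraries in 8 groups, all of J1 cells (strain 129S4/SvJae) at passage 5 to 7. Yap1_OE is a library of undifferentiated cells that overexpress Yap1, and BirA is its control. Yap1_KO1 and Yap1_KO2 are labelled as knockouts of Yap1, with ESC as their control. Yap1_KD is a knockdown in undifferentiated cells with the library named Control beside it, and dESC_Yap1_KD is the knockdown in differentiated cells with dESC_control beside it. The expression construct, the knockdown agent, the edited site, the number of clones and the way and length of differentiation were not stated in the sources used here. Every group but the knockouts is 1 library, so a difference between single libraries has no replicate check and gets no p-value, and nothing in the labels says that the knockout pair came from separate cultures or clones, so its p-values cover the spread between those samples alone, which may be technical.

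Wnt proteins are lipid-modified by Porcn, carried to the cell surface by Wls and bound there by a Frizzled receptor together with Lrp5 or Lrp6. In the canonical branch the receptor complex stops the destruction of beta-catenin, which then acts with TCF/LEF proteins on target genes such as Axin2 and Sp5. Secreted proteins of the Sfrp and Wif families bind Wnt ligands, Dkk proteins such as Dkk1 bind the Lrp co-receptors, and Notum removes the lipid from the ligand. In mouse ES cells canonical signalling favours self-renewal, while in the early embryo Wnt3 is needed for the primitive streak.

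Promoter windows are shown first for the ligands Wnt6, Wnt4 and Wnt3 and for the target gene Sp5, because these genes are among those with the highest FPKM in dESC_control of the 10 members that stood lower in dESC_Yap1_KD. The windows are RefSeq sequence of GRCm38.p6, from 250 bases before to 50 bases after the annotated start, read 5′ to 3′ on the gene's strand, which is the plus strand for all 4. Wnt6 is at chr1:74771642-74771941, Wnt4 at chr4:137277385-137277684, Wnt3 at chr11:103773925-103774224 and Sp5 at chr2:70474673-70474972. Capitals mark a match, on either strand, to the core letters bound by TEAD proteins, through which Yap1 reaches DNA (GGAATG), or to the letters bound by TCF/LEF proteins (CTTTGAT).
Wnt6: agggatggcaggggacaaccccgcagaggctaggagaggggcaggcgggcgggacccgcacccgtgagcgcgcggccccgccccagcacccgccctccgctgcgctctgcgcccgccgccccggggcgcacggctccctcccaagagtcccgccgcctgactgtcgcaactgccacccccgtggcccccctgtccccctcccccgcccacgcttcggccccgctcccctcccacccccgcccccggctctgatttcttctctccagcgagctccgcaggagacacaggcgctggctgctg
Wnt4: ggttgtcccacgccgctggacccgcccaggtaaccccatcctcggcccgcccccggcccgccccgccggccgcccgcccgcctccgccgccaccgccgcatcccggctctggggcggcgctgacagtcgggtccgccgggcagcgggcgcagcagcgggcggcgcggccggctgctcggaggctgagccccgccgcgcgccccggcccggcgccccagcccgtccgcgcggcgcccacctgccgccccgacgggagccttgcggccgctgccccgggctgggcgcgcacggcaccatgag
Wnt3: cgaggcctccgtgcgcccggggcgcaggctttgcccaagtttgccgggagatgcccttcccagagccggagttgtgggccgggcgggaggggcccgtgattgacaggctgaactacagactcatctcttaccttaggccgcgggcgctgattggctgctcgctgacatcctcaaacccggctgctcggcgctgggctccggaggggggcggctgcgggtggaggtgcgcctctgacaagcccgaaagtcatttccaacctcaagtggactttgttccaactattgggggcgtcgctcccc
Sp5: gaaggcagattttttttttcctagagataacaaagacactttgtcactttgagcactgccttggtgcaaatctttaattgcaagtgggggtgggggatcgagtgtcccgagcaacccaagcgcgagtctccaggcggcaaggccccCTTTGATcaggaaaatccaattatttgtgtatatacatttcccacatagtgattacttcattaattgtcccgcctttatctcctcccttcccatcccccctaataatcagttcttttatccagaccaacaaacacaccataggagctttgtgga
The windows of the 3 ligands hold no match to either motif and are rich in G and C, at 76.7% for Wnt6, 84.3% for Wnt4 and 65.7% for Wnt3. The Sp5 window, at 45.0% GC, holds 1 TCF/LEF match, which begins at base 147 of the window. RefSeq windows were matched to 31 of the 50 members by symbol. Of their 35 windows 2 held a TEAD match, against 14.7% of all 32851 windows, and 3 held a TCF/LEF match, against 3.73% of all windows. The motifs are different words that can share 1 end base. A match is only a match of letters, and the windows of Wnt7b, Fzd2 and Wnt10a were not used here.

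Yap1 itself was checked first. Its level was 139 FPKM (fragments per kilobase of transcript, scaled to mapped fragments) in Yap1_OE against 46.7 in BirA, 4.55 in Yap1_KD against 37.4 in Control, and 12.5 in dESC_Yap1_KD against 78.0 in dESC_control. The libraries labelled Yap1_KO1 and Yap1_KO2 kept 57.3 and 27.6 FPKM of Yap1 RNA against 65.4 in ESC, so every direction drawn from them is one of the libraries so labelled. Depth, estimated from the steps between low FPKM values and so only approximate, ran from 9.17 to 22.3 M (mega) fragments per library, at which 1 FPKM of a 2 kb transcript stands for 18.3 to 44.5 fragments. Pou5f1, the defining factor of pluripotent cells, stood between 927 and 1261 FPKM in all 9 libraries, the differentiated ones included, while 6 of 7 pluripotency markers were at least 2-fold lower in dESC_control than in Control. A log2 ratio here is the difference of log2(FPKM + 1), a scale that understates the ratios of low genes. Genes entered a comparison where 1 or more of its libraries reached 1 FPKM, and a gene that passes only through its high library had to differ.

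In the 7 undifferentiated libraries the receptors Fzd7 and Fzd5, the inhibitor Sfrp1 and the scaffold Axin1 were among the 5 highest members of every library, and ligands were low. Summed over the 18 ligands the level was 3.69 to 18.4 FPKM per library, against 78.7 to 138 FPKM over the 10 Frizzled receptors. Fzd7 and Fzd5 led the receptors, with 40.4 to 85.3 FPKM and 25.6 to 56.1 FPKM. Of the ligands only Wnt7b, Wnt6, Wnt4 and Wnt5b reached 1 FPKM in any undifferentiated library. The members at 1 FPKM or more in all 9 libraries were 14: the receptors Fzd5, Fzd7 and Fzd10, the co-receptors Lrp5 and Lrp6, the R-spondin receptor Lgr4, the inhibitors Sfrp1, Sfrp2, Sfrp4 and Notum, the acyltransferase Porcn, and Axin1, Axin2 and Znrf3. Another 11 members stayed under 1 FPKM in every library: Wnt2, Wnt3a, Wnt8b, Wnt9b, Wnt10b, Wnt11, Wnt16, Dkk2, Dkk4, Wif1 and Lgr5, and for these no ratio is given.

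**Figure D1:**
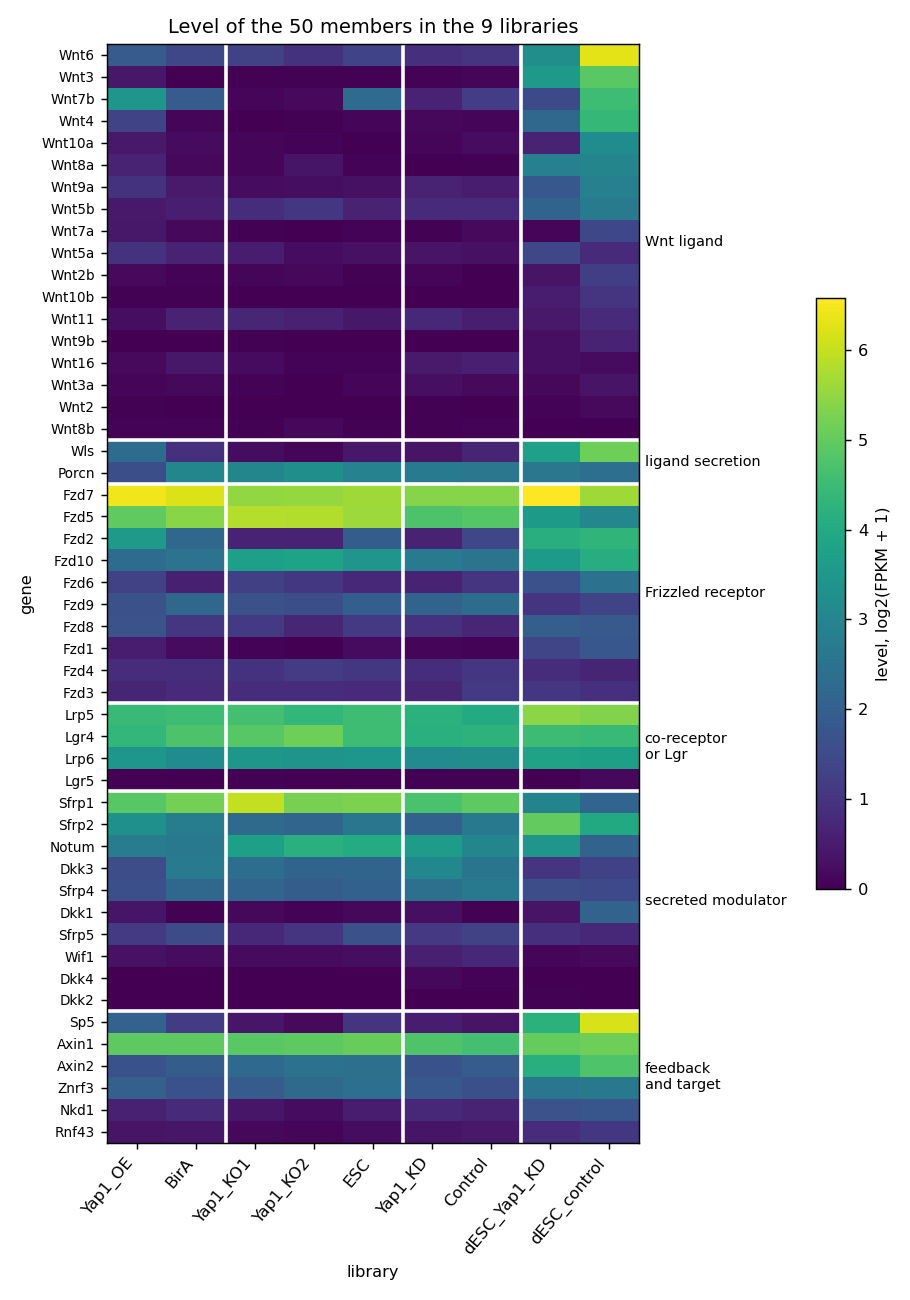
Level of each member (rows, grouped by role) in each library (columns, each perturbed library left of its control) as log2(FPKM + 1), colour from dark (0) to yellow. Most ligands are dark in the 7 undifferentiated libraries, and several are bright in dESC_control, where their summed level was 182 FPKM against 40.6 in dESC_Yap1_KD.

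Wnt7b, a ligand of epithelia and of the placenta, had its level on the same side as Yap1 RNA in all 4 arms. It stood at 9.68 FPKM in Yap1_OE against 2.79 in BirA, at 0.0642 and 0.117 FPKM in Yap1_KO1 and Yap1_KO2 against 3.90 in ESC, at 0.574 in Yap1_KD against 1.30 in Control, and at 1.77 in dESC_Yap1_KD against 22.3 in dESC_control. The value was thus above the control in Yap1_OE and below it in the 4 loss libraries, and the 3 libraries with the lowest values were Yap1_KO1, Yap1_KO2 and Yap1_KD. Each of the undifferentiated loss libraries lay below all 3 undifferentiated controls. Yap1_KO1 held about 2 Wnt7b fragments and Yap1_KO2 about 5, by the depth estimate. These are 1.65% of the ESC level (95% exact Poisson interval 0.200% to 5.95%) and 3.01% (0.978% to 7.03%), intervals that cover counting error in the knockout-labelled library alone. Controls differed among themselves: the log2 ratio of Control over ESC was -1.09, so Control, at 1.30 FPKM, lay well below ESC, at 3.90. The antisense gene AU022754, which shares exon bases with Wnt7b on the other strand in GENCODE M21, was listed at 0.0351 FPKM or less in every library.

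Fzd2, a receptor that passes on both canonical and noncanonical signals, lay on the same side as Yap1 RNA in the undifferentiated cells. Its level was 10.8 FPKM in Yap1_OE against 3.60 in BirA, 0.535 and 0.586 FPKM in Yap1_KO1 and Yap1_KO2 against 2.85 in ESC, and 0.562 FPKM in Yap1_KD against 1.63 in Control. The 3 loss libraries lay close together and below all 3 controls, which ranged from 1.63 to 3.60 FPKM. In differentiated cells the receptor was at 16.4 FPKM in dESC_Yap1_KD against 18.7 in dESC_control, a log2 ratio of -0.18. Whether the effect of knockdown on Fzd2 differed between the undifferentiated and the differentiated cells was not tested, as each has 1 pair of libraries.

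**Figure D2:**
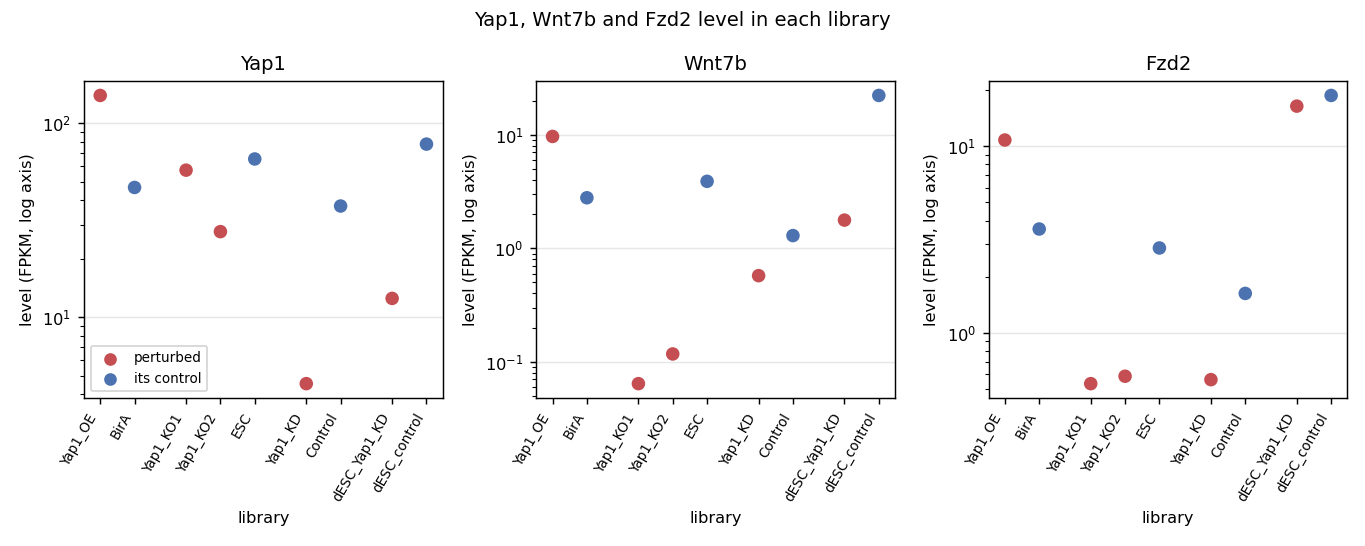
Level of Yap1, Wnt7b and Fzd2 in each library (FPKM, log axes), with perturbed libraries in red left of their controls in blue. Wnt7b and Fzd2 are above their control in Yap1_OE and below it in the other 4 perturbed libraries, by least for Fzd2 in dESC_Yap1_KD (16.4 against 18.7 FPKM).

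The knockout-labelled libraries were compared with ESC by limma over all 11538 genes, with 1 residual degree of freedom. Wnt7b had a log2 change of -2.17 (SE 0.23; unadjusted p = 0.000687; limma, Benjamini-Hochberg adjusted p = 0.146) and Fzd2 one of -1.30 (SE 0.22; unadjusted p = 0.0036; adjusted p = 0.150). Neither passed at 0.05 over all genes, where limma called 2 genes higher (0.0173%) and 18 lower (0.156%). Wnt7b and Fzd2 entered the fit through ESC alone and so had to lie below it. Without the small RNA rows limma gave Wnt7b an adjusted p of 0.0436 and Fzd2 one of 0.0695. The log2 ratios of these libraries also followed the GC content of transcripts across all genes (Spearman rho -0.564 in Yap1_KO1 and -0.579 in Yap1_KO2), and the members are richer in GC than all genes, with medians of 55.5% and 51.2%. With the GC trend removed the log2 change was -1.92 for Wnt7b (limma, adjusted p = 0.0983) and -1.11 for Fzd2 (limma, adjusted p = 0.199), and with trend and small RNA rows both removed Wnt7b had an adjusted p of 0.0378 by limma.

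Of the 24 members tested in that fit, 0 were called by limma, with 2 higher and 3 lower at an unadjusted p under 0.05. That share has to be read against the 23.1% of all genes with such a p in this fit. The 2 higher were Lgr4, a receptor for R-spondins, and Fzd10. Lgr4 was at 28.3 and 33.6 FPKM in Yap1_KO1 and Yap1_KO2 against 22.0 in ESC (log2 change 0.47, SE 0.15; limma, adjusted p = 0.187). Fzd10 was at 12.1 and 13.1 FPKM against 9.68 (log2 change 0.35, SE 0.13; limma, adjusted p = 0.216). The third lower gene beside Wnt7b and Fzd2 was Sfrp5, a secreted Wnt binder, at 0.661 and 1.01 FPKM against 2.10 (log2 change -0.76, SE 0.24; limma, adjusted p = 0.191). With the GC trend removed, Lgr4 had a log2 change of 0.26 (limma, unadjusted p = 0.138) and Sfrp5 one of -0.49 (limma, unadjusted p = 0.0939), so neither kept an unadjusted p under 0.05, and Fzd10 had one of 0.53 (limma, unadjusted p = 0.00954). By the 2-fold rule applied to both libraries at once, 0 members were higher (0.191% of all genes) and 2 lower (0.979% of all genes), namely Wnt7b and Fzd2. Both passed the filter through ESC alone, so their direction was fixed in advance. With a pseudocount of 5 in place of 1, 0 members passed the 2-fold rule. The median log2 change over the 24 members was -0.07, against 0.0061 over all genes tested. That median also holds the members whose direction the filter fixed. Feeder fibroblast markers summed to 40.2 and 33.0 FPKM in Yap1_KO1 and Yap1_KO2 against 20.0 in ESC over 9 listed, of which Thy1 made up 39.2 and 32.0 against 18.7, while Col1a1 was at 0.453 and 0.132 against 0.832. Trophoblast markers summed to 28.0 and 39.7 FPKM against 38.2, of which Tfap2c made up 16.7 and 28.6 against 21.3. Among other trophoblast markers Krt7 lay below ESC, at 0.295 and 0.269 FPKM against 1.29 (limma, unadjusted p = 0.0270). Krt7 passed the filter through ESC alone and so had to be lower. Krt18 was also below ESC, at 4.86 and 5.36 FPKM against 8.87 (limma, unadjusted p = 0.00821). Eomes lay above ESC, at 2.17 and 2.43 FPKM against 1.83. The part of these cell types in the members' values was not tested. Of the 24 tested members, 18 lay within 0.5 of ESC on the log2(FPKM + 1) scale in both libraries. Among these Fzd7 had 44.2 and 45.2 FPKM against 49.1, Lrp5 23.2 and 19.5 against 22.2, and Axin2 3.79 and 4.45 against 4.41. The 6 outside that range were Wnt7b, Fzd2, Sfrp5, Lgr4, Fzd6 and Sfrp1. Fzd6, a receptor of the planar polarity branch, was at 1.39 and 1.09 FPKM in Yap1_KO1 and Yap1_KO2 against 0.654 in ESC. It passed the filter through the knockout-labelled libraries alone and so had to lie above ESC. By the depth estimate its values rest on about 9.56 and 10.3 fragments against 7.22 in ESC. Sfrp1, the highest inhibitor, differed within the pair, with 61.7 FPKM in Yap1_KO1 and 36.5 in Yap1_KO2 against 37.8 in ESC.

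Both undifferentiated loss arms, the knockout-labelled pair with ESC and Yap1_KD with Control, were also fitted together by limma with a term for the arm, which leaves 2 residual degrees of freedom. Over 12128 genes limma called 0 higher and 2 lower (0.0165%), with 6.75% at an unadjusted p under 0.05. Of the 25 members tested 0 were called, and 4 had an unadjusted p under 0.05, all of them lower: Fzd2 (log2 change -1.07, SE 0.19; limma, adjusted p = 0.455), Wnt7b (-1.47, SE 0.36; limma, adjusted p = 0.604), Sfrp2 (-0.48, SE 0.15; limma, adjusted p = 0.714) and Sfrp5 (-0.52, SE 0.21; limma, adjusted p = 0.733). Fzd2 and Wnt7b entered this fit through ESC and Control alone and so had to be lower. Sfrp2, a Wnt-binding relative of Sfrp1, had 3.80 and 3.44 FPKM in Yap1_KO1 and Yap1_KO2 against 4.95 in ESC, and 3.13 in Yap1_KD against 5.37 in Control. The 3 loss libraries were thus all below the 3 undifferentiated controls, the third of which, BirA, had 5.80 FPKM. With the GC trend removed, the joint log2 change was -0.38 for Sfrp2 (limma, unadjusted p = 0.0583) and -0.38 for Sfrp5 (limma, unadjusted p = 0.0656). Fzd2 (limma, unadjusted p = 0.00104) and Wnt7b (limma, unadjusted p = 0.0069) stayed under 0.05. Fzd10 then had a log2 change of 0.36 (limma, unadjusted p = 0.0395).

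In Yap1_KD alone, where Yap1 RNA stood at 12.2% of Control, no member was 2-fold apart on the log2(FPKM + 1) scale: 0 of 22 members tested were higher and 0 lower, against 0.506% of all genes in each direction. In FPKM, Fzd2 stood at 34.5% and Wnt7b at 44.3% of Control, and with a pseudocount of 0.1 in place of 1, 2 members were at least 2-fold lower. Fzd2 had the lowest log2 ratio of the tested members, -0.75, followed by Sfrp2 at -0.63 and Wnt7b at -0.54. Fzd2 and Wnt7b passed the filter on low values through Control alone and so had to be lower. At the other end of the log2 ratios stood 2 secreted modulators. Notum, the lipase that inactivates Wnt ligands, was at 11.4 FPKM in Yap1_KD against 7.12 in Control (log2 ratio 0.61). Dkk3, a divergent relative of the Dkk family, was at 7.37 against 4.81 FPKM (log2 ratio 0.53). Notum is a gene on which controls disagree, with 5.18 FPKM in BirA, 7.12 in Control and 15.5 in ESC, a span wider than its difference in the knockdown. Set against one another with no test, BirA over ESC had 0 of 23 members at least 2-fold higher (1.14% of all genes) and 1 lower (0.686%), Notum. Control over ESC had 0 of 24 higher (3.02% of all genes) and 2 lower (1.91%), Notum and Wnt7b. Control over BirA had 0 of 25 higher (1.23% of all genes) and 0 lower (0.409%). The main receptors were nearly level, with Fzd7 at 40.6 FPKM in Yap1_KD against 40.4 in Control and Fzd5 at 25.6 against 27.7. Of the low receptors, Fzd3 was at 0.646 FPKM in Yap1_KD against 1.17 in Control and Fzd6 at 0.550 against 1.02. Both of these also passed the filter through Control alone.

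The library with overexpressed Yap1 had more RNA of 2 ligands, their carrier and a receptor. Of 25 members tested in Yap1_OE against BirA, 4 were at least 2-fold higher (1.6% of all genes were) and 2 at least 2-fold lower (2.35% of all genes). The higher ones were Wnt7b (log2 ratio 1.49), Wls (1.44), Fzd2 (1.36) and Wnt4 (1.24). Wls and Wnt4 passed the filter on low values through Yap1_OE alone and so had to be higher. With a pseudocount of 5, 0 members were 2-fold apart in either direction. Wls, the carrier that all lipid-modified Wnt proteins need to leave the cell, was at 4.04 FPKM in Yap1_OE against 0.854 in BirA. Wnt4, a ligand of kidney and gonad formation, was at 1.54 FPKM in Yap1_OE, where 6 other undifferentiated libraries had 0.101 FPKM or less, BirA among them with 0.0710. Against ESC in place of BirA these 4 genes had log2 ratios of 1.13 for Wnt7b, 1.92 for Wls, 1.62 for Fzd2 and 1.22 for Wnt4. The lower members were Porcn and Dkk3. Porcn, the acyltransferase that lipidates Wnt ligands, was at 2.01 FPKM in Yap1_OE against 7.14 in BirA, below the 5.13 to 8.66 FPKM of the 5 other undifferentiated libraries. Dkk3 was at 1.93 FPKM in Yap1_OE against 5.38 in BirA. With ESC as the control the log2 ratio was -1.33 for Porcn and -0.56 for Dkk3.

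Members just short of 2-fold on the log2(FPKM + 1) scale in Yap1_OE included Sp5, the transcription factor that is a direct beta-catenin target, with 3.19 FPKM against 1.26 in BirA (log2 ratio 0.89; 2.54-fold in FPKM). Axin2, the feedback inhibitor most often used to read canonical signalling, pointed the other way with 2.14 FPKM in Yap1_OE against 2.81 in BirA (log2 ratio -0.28). These readouts of the pathway thus lay on opposite sides of BirA. The median log2 ratio over the 25 members was 0.15, against 0.019 over all genes. It holds Wls, Wnt4 and Fzd6, which passed the filter through Yap1_OE alone and so had to be higher. Ligands under 1 FPKM in both libraries lay on both sides of BirA. Among those above it, Wnt9a was at 0.961 FPKM in Yap1_OE against 0.392 in BirA, Wnt8a at 0.586 against 0.0979 and Wnt3 at 0.338 where BirA was listed at 0. Among those below it, Wnt11 was at 0.194 FPKM against 0.574, Wnt16 at 0.117 against 0.352, Wnt5b at 0.369 against 0.457 and Wnt3a at 0.0672 against 0.101. Of 7 trophoblast markers tested in the same library 5 were at least 2-fold higher, with a summed level of 244 FPKM in Yap1_OE against 59.7 in BirA over the 9 listed. Most of the Yap1_OE sum was the keratins Krt18, at 130 against 17.5 FPKM, and Krt8, at 63.4 against 7.32. Gata3 and Hand1 passed the filter through Yap1_OE alone and so had to be higher. Tfap2c was level at 29.9 against 29.6 FPKM, and Eomes was lower at 1.04 against 2.40. The defining marker Elf5 was listed at 0 in Yap1_OE. The part of these markers in the ligand levels was not tested.

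**Figure D3:**
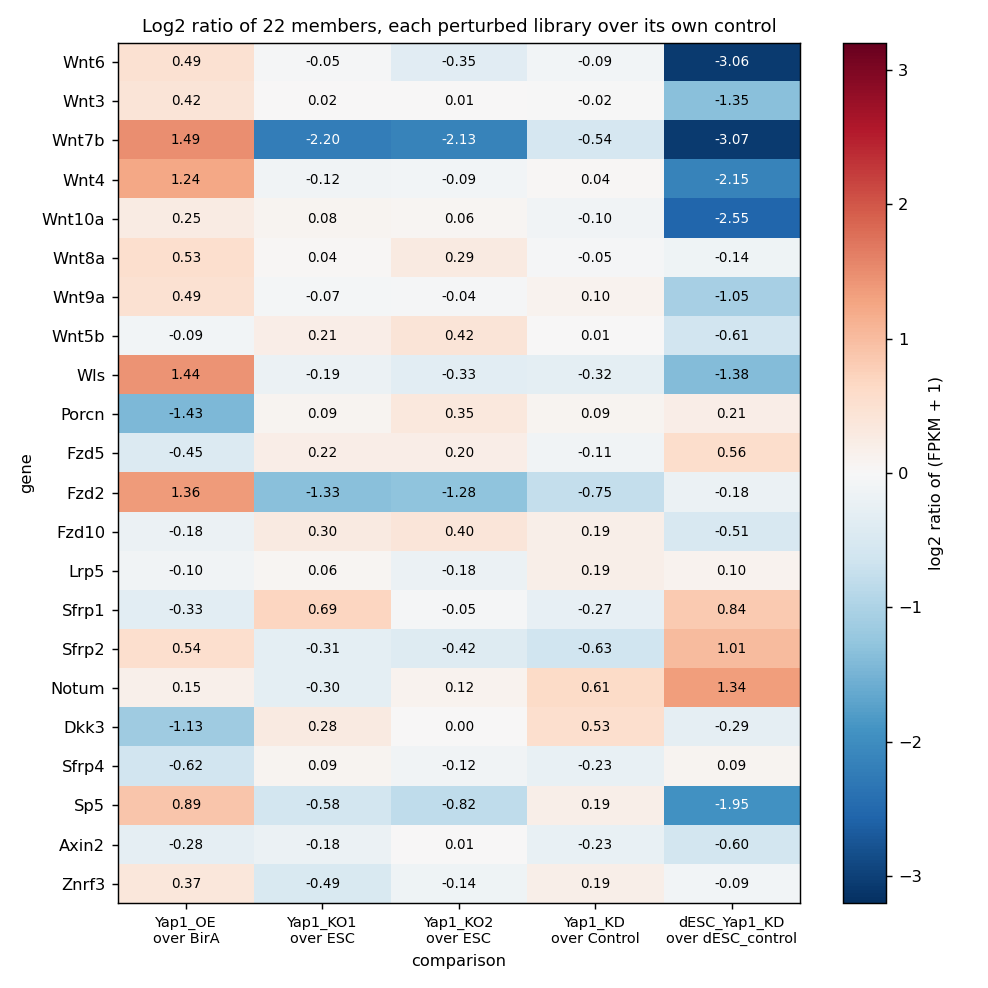
Log2 ratio of (FPKM + 1) of each perturbed library over its own control (columns) for the 22 members that reached 5 FPKM somewhere and were at least 2-fold apart in a comparison (rows, by role). Red is higher and blue lower in the perturbed library; Wnt7b runs from 1.49 in Yap1_OE to -3.07 in dESC_Yap1_KD, while the other ligands lie between -0.35 and 0.42 in the undifferentiated loss libraries.

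The widest differences lay between cell states. To give them, dESC_control was set beside the undifferentiated Control, 1 library each. The summed ligand level was 182 FPKM in dESC_control against 5.27 in Control, and 10 ligands were at 1 FPKM or more against 1. Of 38 members tested, 23 were at least 2-fold higher (13.1% of all genes were) and 4 at least 2-fold lower (10.1% of all genes). Of the 10 ligands tested, all but Wnt7b passed the filter on low values through dESC_control alone and so had to be higher there. The same holds for Wls, Sp5, Dkk1, Fzd1, Fzd8, Nkd1 and Rnf43, all but Rnf43 being among the 23. The count is therefore a description.

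The ligands of dESC_control included several of the primitive streak and of epithelia. Wnt6, a ligand of surface epithelium, was at 78.0 FPKM in dESC_control against 0.990 in Control. Wnt3, the ligand needed for gastrulation, was at 28.7 against 0.0720 FPKM. Wnt4 was at 19.6 against 0.0695 FPKM and Wnt10a, a ligand of skin appendages and teeth, at 8.18 against 0.167. Wnt8a, a streak ligand, was at 6.97 against 0.0319 FPKM, Wnt9a at 6.25 against 0.444 and Wnt5b, which mostly acts outside the beta-catenin branch, at 5.61 against 0.724. The carrier Wls was at 34.2 FPKM in dESC_control against 0.591 in Control, while Porcn, at 4.26 against 5.13, was level. Feedback genes stood high as well: Sp5 was at 71.0 against 0.266 FPKM and Axin2 at 26.1 against 2.74. Wls and Sp5 had to be higher, having passed the filter through dESC_control alone.

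Receptors and secreted modulators lay on both sides. Fzd2 was at 18.7 FPKM in dESC_control against 1.63 in Control, Fzd10 at 16.1 against 4.79 and Fzd1 at 2.43 against 0.0502. Fzd5 went the opposite way, with 7.20 FPKM in dESC_control against 27.7 in Control, and Fzd7 was nearly level at 48.5 against 40.4. The co-receptor Lrp5 was at 39.6 against 15.1 FPKM. Among secreted modulators Sfrp1 was at 3.40 FPKM in dESC_control against 29.8 in Control, Sfrp4 at 1.76 against 5.32 and Dkk3 at 1.42 against 4.81. On the other side Sfrp2 was at 15.0 against 5.37 FPKM and Dkk1, the main secreted antagonist of Lrp5 and Lrp6, at 3.23 against 0.0206. Fzd1 and Dkk1 had to be higher, having passed the filter through dESC_control alone. Znrf3, a ubiquitin ligase that clears Frizzled receptors from the membrane, was at 5.33 against 2.05 FPKM.

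In differentiated cells the knockdown library held much less ligand RNA than its control. The summed ligand level was 40.6 FPKM in dESC_Yap1_KD against 182 in dESC_control. Of the 37 members tested 10 were at least 2-fold lower (4.77% of all genes were) and 2 at least 2-fold higher (1.71% of all genes). Of the 10 lower members 7 are ligands: Wnt3, Wnt4, Wnt6, Wnt7a, Wnt7b, Wnt9a and Wnt10a. The others were the carrier Wls, the antagonist Dkk1 and the target Sp5. The median log2 ratio over the 37 was -0.22, against -0.011 over all genes. Dkk1, Wnt7a, Wnt10a, Wnt2b, Dkk3, Fzd9 and Rnf43 passed the filter through dESC_control alone and so had to be lower. Wnt5a and Fzd3 passed it through dESC_Yap1_KD alone and so had to be higher. The median holds these members too. Less RNA per cell and fewer cells of a ligand-making type cannot be told apart in bulk RNA.

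The ligands differed widely in how much lower they were. Wnt7a, a relative of Wnt7b, was at 0.0720 FPKM in dESC_Yap1_KD against 1.70 in dESC_control. Wnt10a was at 0.569 against 8.18 FPKM, or 6.96% of dESC_control, and Wnt7b at 7.97%. Wnt6 was at 8.46 against 78.0 FPKM, or 10.8%, and Wnt4 at 3.66 against 19.6, or 18.7%. These 5 ligands form the lower end. Others kept more: Wnt3 had 10.7 FPKM against 28.7, or 37.2%, Wnt9a 2.50 against 6.25, or 40.0%, and Wnt5b 3.33 against 5.61, or 59.4%. The streak ligand Wnt8a was almost level, with 6.25 FPKM in dESC_Yap1_KD against 6.97 in dESC_control. Wnt5a, the main noncanonical ligand, was the ligand on the other side, at 1.65 FPKM in dESC_Yap1_KD against 0.759 in dESC_control (log2 ratio 0.59). It passed the filter through dESC_Yap1_KD alone and so had to be higher.

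The 2 secretion genes lay on opposite sides. Wls was at 12.5 FPKM in dESC_Yap1_KD against 34.2 in dESC_control (log2 ratio -1.38), and Porcn at 5.08 against 4.26 FPKM (log2 ratio 0.21). Sp5, whose promoter window holds the TCF/LEF match shown above, was at 17.7 against 71.0 FPKM (log2 ratio -1.95). Axin2 was at 16.9 against 26.1 FPKM (log2 ratio -0.60), Nkd1 at 2.19 against 2.37, Znrf3 at 4.95 against 5.33 and Rnf43, the partner ligase of Znrf3, at 0.781 against 1.08. All 6 feedback and target genes were thus below dESC_control, only Sp5 by 2-fold. Rnf43 had to be, having passed the filter through dESC_control alone. Dkk1 was at 0.281 FPKM in dESC_Yap1_KD against 3.23 in dESC_control.

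Of the 9 Frizzled receptors tested 5 were below dESC_control and 4 above it, none by 2-fold on the log2(FPKM + 1) scale. Fzd9 had to be below and Fzd3 above, each having passed the filter through its higher library alone. The summed Frizzled level was 143 FPKM in dESC_Yap1_KD against 103 in dESC_control, but without Fzd7 it was 48.0 against 54.6. Fzd7 was at 94.5 against 48.5 FPKM (log2 ratio 0.95). Fzd5 was at 11.1 against 7.20 FPKM, Fzd10 at 11.0 against 16.1, Fzd6 at 2.15 against 4.60, Fzd1 at 1.57 against 2.43 and Fzd9 at 0.974 against 1.56. Lrp5 (42.6 against 39.6 FPKM), Lrp6 (12.9 against 12.4) and Lgr4 (21.7 against 20.4) were level. The 2 members at least 2-fold higher were both secreted inhibitors: Notum with 9.79 FPKM in dESC_Yap1_KD against 3.27 in dESC_control, and Sfrp2 with 31.2 against 15.0; neither passed with a pseudocount of 5. Sfrp1 was at 6.86 against 3.40 FPKM, with a log2 ratio of 0.84. For Fzd5 and Sfrp1 the level in dESC_Yap1_KD lay between those of dESC_control and of the undifferentiated Control, and for Notum, Sfrp2 and Fzd7 it lay above both.

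**Figure D4:**
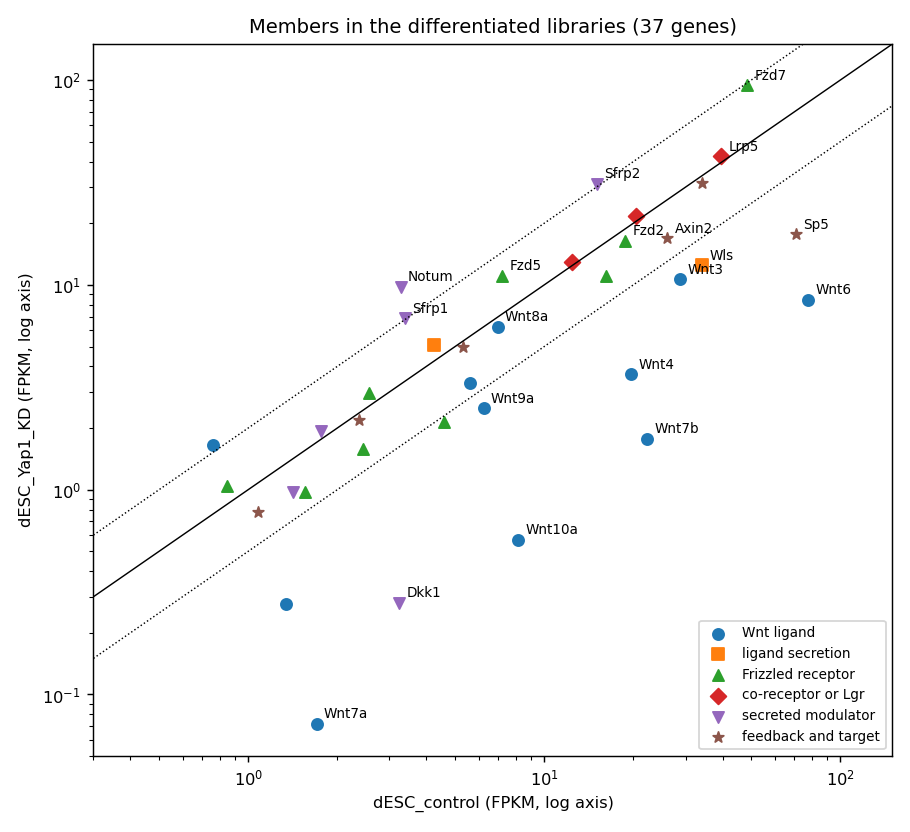
Level of the 37 members at 1 FPKM or more in a differentiated library, dESC_Yap1_KD on the vertical and dESC_control on the horizontal log axis (FPKM), by role. The solid line marks equal levels and the dotted lines a 2-fold ratio of FPKM; the ligands Wnt6, Wnt4, Wnt7b and Wnt10a lie well below, and Notum, Sfrp2 and Sfrp1 lie near or above the upper dotted line.

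The remaining values of the described members in the loss libraries were small next to those in differentiated cells. Wnt6 was at 1.42 and 0.958 FPKM in Yap1_KO1 and Yap1_KO2 against 1.50 in ESC, 0.866 in Yap1_KD against 0.990 in Control, and 2.69 in Yap1_OE against 1.62 in BirA. Wls was at 0.164 and 0.0599 FPKM in Yap1_KO1 and Yap1_KO2 against 0.332 in ESC, and 0.272 in Yap1_KD against 0.591 in Control. Both genes were thus below their control in all 3 undifferentiated loss libraries, by less than 2-fold on the log2(FPKM + 1) scale. Wnt6 in Yap1_KO1 was at 94.8% of ESC, which is nearly level. Wls failed the filter in both loss arms and Wnt6 in that of Yap1_KD. By the depth estimate Wls rests on about 3.69 and 1.84 fragments in Yap1_KO1 and Yap1_KO2 against 12.0 in ESC. Sp5 was at 0.323 and 0.118 FPKM in Yap1_KO1 and Yap1_KO2 against 0.972 in ESC, but at 0.440 in Yap1_KD against 0.266 in Control, so the loss libraries lay on both sides. Wnt3, Wnt8a, Wnt9a and Wnt10a stayed at 0.961 FPKM or less in every undifferentiated library. Porcn was at 7.06 and 8.66 FPKM in Yap1_KO1 and Yap1_KO2 against 6.58 in ESC and 5.52 in Yap1_KD against 5.13 in Control, on the other side from Yap1_OE. Notum was at 12.4 and 16.9 FPKM in Yap1_KO1 and Yap1_KO2 against 15.5 in ESC, and 5.87 in Yap1_OE against 5.18 in BirA.

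Members with low or even levels complete the set. Fzd3 ran from 0.596 to 1.17 FPKM over the 9 libraries, Fzd4 from 0.615 to 1.20, Fzd8 from 0.627 to 2.95 and Fzd9 from 0.974 to 3.98. These receptors were expressed well below Fzd7. Axin1, the scaffold of the beta-catenin destruction complex, ran from 23.5 to 34.0 FPKM and Lgr4 from 17.1 to 33.6. The ligand Wnt2b reached 1.34 FPKM in dESC_control and 0.275 in dESC_Yap1_KD, and stayed at 0.127 FPKM or less elsewhere.

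Between arms that share no library, 3 of the 4 members that were higher in Yap1_OE were among the 10 that were lower in dESC_Yap1_KD, namely Wnt7b, Wnt4 and Wls. Wnt4 and Wls passed the filter of the first arm through Yap1_OE alone and so had to be higher there. Over all genes 76 of the 186 higher in Yap1_OE (40.9%) were among the 565 lower in dESC_Yap1_KD (13.5% of these), trophoblast markers included: Krt18 was at 130 FPKM in Yap1_OE against 17.5 in BirA and at 102 in dESC_Yap1_KD against 832 in dESC_control. The fourth, Fzd2, was with Wnt7b 1 of the 2 lower in both knockout-labelled libraries, where over all genes 24 of the 186 (12.9%) were among the 113 lower (21.2% of these). Fzd2 and Wnt7b passed the filter there through ESC alone. Neither member lower in Yap1_OE, Porcn or Dkk3, was at least 2-fold higher in a loss library.

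The other genes of the pathway were followed in 4 lists. Of 63 genes, 45 were tested in the fit of the knockout-labelled libraries and 46 in the joint fit, and limma called 0 in either, with 9 and 5 at an unadjusted p under 0.05, beside 23.1% and 6.75% of all genes. The 2-fold counts over lists and markers stand beside the shares of all genes given for each comparison, which in dESC_Yap1_KD were 1.71% higher and 4.77% lower. Of the 22 intracellular transducers tested in each arm, 0 were 2-fold apart in Yap1_OE, 0 in Yap1_KD and 0 in Yap1_KO2. In Yap1_KO1 1 was lower, the TCF/LEF family member Lef1 with 0.826 FPKM, against 1.72 in Yap1_KO2 and 2.67 in ESC. Lef1 passed the filter of Yap1_KO1 over ESC through ESC alone and so had to be lower. In dESC_Yap1_KD 1 was lower, the beta-catenin cofactor Bcl9l with 9.79 FPKM against 22.9 in dESC_control. Beta-catenin itself, Ctnnb1, was at 298 FPKM in dESC_Yap1_KD and 285 in dESC_control. Of 17 co-receptor and planar polarity genes tested in dESC_Yap1_KD, 2 were higher and 3 lower. The higher ones were the Wnt5a receptor Ror1, at 4.85 against 0.962 FPKM, and Prickle1, at 8.10 against 3.25. Ror1 passed the filter through dESC_Yap1_KD alone and so had to be higher. The lower ones were Daam1, a formin downstream of Dvl, at 6.98 against 19.3 FPKM, the Dkk co-receptor Kremen2, at 1.04 against 5.83, and the glypican Gpc4, at 11.2 against 28.8. Gpc4 was also the 1 gene of that list at least 2-fold higher in Yap1_OE, with 25.1 FPKM against 10.8 in BirA.

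Of 11 Wnt targets tested in dESC_Yap1_KD, 4 were at least 2-fold lower and 0 higher, beside 4.77% and 1.71% of all genes: Brachyury (T) at 20.0 FPKM against 70.7 in dESC_control, Mixl1 at 1.95 against 12.2, the caudal factor Cdx1 at 1.11 against 5.10 and the adhesion receptor Cd44 at 0.763 against 3.29. Cd44 passed the filter through dESC_control alone and so had to be lower. Less than 2-fold apart were Cdx2, at 3.97 FPKM in dESC_Yap1_KD against 6.87 in dESC_control, and the cyclin Ccnd2, above its control at 11.0 against 7.75. Of 3 R-spondins and other secreted genes tested, 0 were 2-fold apart in either direction.

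Markers of several cell types differed along with the ligands in the differentiated pair. Of 8 trophoblast markers tested, 5 were at least 2-fold lower in dESC_Yap1_KD, and the 9 listed summed to 214 FPKM against 1428 in dESC_control, with the defining Elf5 at 0.0743 and 0.0507. Most of both sums was the keratins Krt18, at 102 against 832 FPKM, and Krt8, at 65.3 against 486. Tfap2c lay on the other side, at 18.4 against 8.87 FPKM. Of 4 primitive streak and mesoderm markers tested 3 were lower, with 35.3 against 111 FPKM over 7 listed and Msgn1 listed at 0 in both libraries. Of 4 surface epithelium markers tested 2 were lower, with 123 against 137 FPKM over 6 listed. Of 7 pluripotency markers 2 were higher and 0 lower, with 1671 against 1255 FPKM. Of 3 feeder fibroblast markers tested 1 was higher, Thy1 at 8.21 FPKM in dESC_Yap1_KD against 3.40 in dESC_control, and 1 lower, Col1a1 at 0.444 against 5.73, and the 9 listed summed to 12.2 against 14.3. Of the markers counted as lower, Col1a1, the mesoderm gene Mesp1 and the epithelial Krt14 passed the filter through dESC_control alone and so had to be lower. Of 3 neuroectoderm markers tested 1 was higher, Otx2 at 81.0 against 24.03 FPKM, while Nes was at 28.6 against 50.1, and the 6 listed summed to 139 against 90.8. Endoderm markers summed to 2.70 against 3.55 FPKM over the 6 in the table. The part of these cell types in the ligand levels was not tested.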

How the data were processed

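Gene-level values of 9 polyadenylated RNA libraries were used as the authors deposited them, in 1 table whose values were taken as FPKM. TopHat2, Cuffdiff and mm9 are named per the submitters' processing notes. Their versions, the annotation and strandedness were not stated in the sources used here, and the unit is not written in the file. A value listed at 0 can be a failed estimate. Of 23277 rows, 4746 blank ones and 27 with symbols turned into dates were left out. The 176 small RNA rows took 16.0% to 23.8% of the summed FPKM. Depth was estimated from the steps between low FPKM values. Only 8.11% to 11.5% of low genes shared a common ratio with BirA, and the scale for BirA has quartiles of 11.6 and 14.8 M fragments, so depths are approximate.

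Values were taken as log2(FPKM + 1), and a gene entered a comparison if any of its libraries reached 1 FPKM. Limma (version 3.58.1, R 4.3.3) was fitted with its trend option, and p-values were adjusted over all genes by Benjamini-Hochberg at 0.05. In the fit of the knockout-labelled libraries the spread comes from that pair, and single libraries are taken to vary as much. In the joint fit the spread also holds how far the knockout-labelled and the knockdown differences lie apart. Single libraries were compared by a 2-fold rule with no test. GC content (18293 genes, all 50 members), lengths and overlaps came from GENCODE M21 (GRCm38), and promoter windows from RefSeq GRCm38.p6; neither is the authors' build, and no coordinate of one was used with the other. Members with a value in each library are the 22 at 5 FPKM or more somewhere and at least 2-fold apart in a comparison or called; other members are given by example. Of each pathway list up to 4 genes per comparison are named, those with the largest log2 ratio at 5 FPKM or more. Ror1, Cd44, Ccnd2, Lef1 and Ctnnb1, the single markers named and the range of 0.5 around ESC were chosen after their values were seen. The members and lists were chosen with earlier results of these data known.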

Additional observations from a re-analysis of the deposited data

Results flagged for a closer look

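Sfrp2 had opposite directions under knockdown in the 2 cell states, at 0.5 or more on the log2 scale in each. Its log2 ratio was -0.63 in Yap1_KD over Control and 1.01 in dESC_Yap1_KD over dESC_control. Each state has 1 pair of libraries, so the difference between them was not tested. The knockout-labelled libraries had the direction of Yap1_KD, with log2 ratios of -0.31 and -0.42. With the GC trend removed, the log2 change of Sfrp2 in the fit of these libraries was -0.16 (limma, unadjusted p = 0.374).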

How the results depend on the processing

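Counts of genes past 2-fold moved with the pseudocount; the cause was not tested. With 0.1, 353 genes were higher and 564 lower in Yap1_OE, 132 and 109 in Yap1_KD, 366 and 859 in dESC_Yap1_KD and 68 and 219 in both knockout-labelled libraries; 7 members were then higher in Yap1_OE and 2 lower in Yap1_KD. With 5, the counts were 74 and 94 in Yap1_OE, 39 lower in Yap1_KD, 67 and 257 in dESC_Yap1_KD, 7 and 50 in the knockout-labelled pair and 772 and 465 for differentiation; members were then 0 higher and 0 lower in Yap1_OE, 0 lower in the knockout-labelled pair, 0 higher in dESC_Yap1_KD, and 13 higher and 2 lower for differentiation. With a filter at 5 FPKM, 2 members were higher in Yap1_OE and 0 lower in the knockout-labelled pair. Without small RNA rows 24 genes were higher and 28 lower in Yap1_KD, limma called 10 and 38 with 1 member lower in the knockout-labelled pair, and 1 higher in the joint fit. With ESC as the control of Yap1_KD, 513 genes were higher and 370 lower, with 2 members lower.

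In the fit of the knockout-labelled pair limma called 1 gene higher at a pseudocount of 5, 0 higher and 0 lower with all genes kept, 5 higher and 31 lower with the GC trend removed, 14 and 48 (1 member lower) after removal of both GC trend and small RNA rows, an alternative chosen after seeing the data, and 0 and 1 with BirA and Control as further controls. Adjusted p of Wnt7b ranged from 0.0378 to 0.281 over these settings by limma, and that of Fzd2 from 0.0695 to 0.281. In the joint fit 1 gene was called lower with a pseudocount of 0.1, without a filter or at 5 FPKM, and 1 higher and 1 lower after both removals. Leaving out a knockout-labelled library gave 1 to 6 genes higher and 3 to 9 lower in the joint fit (6 and 9 without Yap1_KO1) and 68 to 75 higher and 194 to 194 lower by the 2-fold rule; Wnt7b and Fzd2 stayed lower in each, with joint log2 changes of -1.37 to -1.34 and -1.04 to -1.02. In the fit of the pair alone a left-out library leaves no residual degrees of freedom. Each perturbed library was set against its own control, which the joint fit holds as its term for the arm. No other pairing was used. Levels near 0.1 FPKM, such as those of Wnt7b in the knockout-labelled libraries, rest on a few fragments.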
